A study of Bos taurus with 4 samples.

Results

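The citrate cycle set comprised 9 genes, CS, IDH3A, IDH3B, IDH3G, OGDH, DLST, SUCLG1, FH and MDH2, and its probes were taken as all bovine probes of the array whose annotated gene symbol was one of these names. This gave 13 of 43794 bovine probes, for 8 of the 9 genes: 4 probes for CS, 3 for IDH3G and 1 each for IDH3A, IDH3B, OGDH, SUCLG1, FH and MDH2. No probe carried the symbol DLST, and that gene is not analysed here. The RNA came from 4 pools of 200 immature Holstein cow oocytes at the germinal vesicle stage, freed of cumulus cells and taken from slaughterhouse ovaries that were kept on ice. From each pool, RNA depleted of ribosomal RNA was split on poly(A)-binding beads into A150, eluted at 75 °C and described as carrying tails of at least 150 nucleotides, and A-, the unbound and washed-off RNA, described as carrying tails of at most 50 nucleotides. RNA released by an earlier elution at 42 °C was not used here. Both fractions of a pool were hybridised to 1 two-colour array, and the dyes were swapped between arrays: A150 carried Cy5 on arrays 1 and 2, and Cy3 on the other two.

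The citrate cycle oxidises acetyl groups in the mitochondrial matrix and passes the electrons to the respiratory chain. Mammalian oocytes rely on pyruvate from the surrounding cumulus cells and on mitochondrial oxidation for their ATP. In oocytes, an mRNA with a short tail is generally stored without being translated, and a long tail generally goes with translation. Each ratio is the log2 of the A150 signal over the A- signal of a probe, after background correction and loess normalization of its array, so a positive value means more signal in A150 than is usual for that array. In pooled oocytes, fewer cells with a transcript and less transcript per cell cannot be told apart. How much RNA each fraction held is not known here, and a ratio therefore does not give the share of an mRNA that carries a long tail.

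The citrate cycle genes did not lie on 1 side. CS, the gene of the enzyme that starts the cycle, had negative mean ratios with all 4 of its probes, from -1.92 to -1.04, that is, higher signal in A-. FH and MDH2, the genes of the last 2 enzymes of the cycle, had ratios of 1.12 ± 0.64 and 0.99 ± 0.33 (SD, n = 4) and were positive on all 4 arrays. The 3 subunit genes of the NAD-dependent isocitrate dehydrogenase were split, with IDH3B positive and IDH3A and IDH3G negative in the mean. No tested ratio among these passed the threshold after adjustment over all probes, and MDH2 was too dim to be tested in that fit, so they are given as values.

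Spots brighter than the mean plus 2 SD of the negative-control spots of the same channel were taken as above background. Testing required such a signal in A150 or A- on 3 or more arrays, which held for 10 of the 13 probes and for 6 of the 8 genes with a probe. The probe of OGDH, that of MDH2 and 1 probe of IDH3G were too dim and are given without a test in that fit. Between 9.96% and 60.6% of the bovine probes were above background in A150, and between 22.0% and 48.7% in A-. Array 2 had the lowest share in A150. Among tested probes, the ratios of 2 arrays correlated at r = 0.12 to 0.32 across probes, which are not independent replicates. In limma, 0 of the 10 citrate cycle probes had an adjusted p under 0.05, where 0.0617% of the 19453 tested probes did, all of them higher in A-. At an unadjusted p under 0.05 there was 1 citrate cycle probe higher in A150 (8.03% of tested probes) and 4 higher in A- (5.45%), of which 3 were probes of CS. Counted by gene, with the brightest tested probe of each, 1 of 6 lay under this p toward A150 (9.9% of 7795 genes) and 2 of 6 toward A- (4.25%). Of these genes, FH met the brightness requirement only through A150, and IDH3G only through A-. In each case this is the fraction where the gene was higher, so no support for a side is drawn from these counts. The same limit can apply to genes of the lists below. Of the 10 tested probes, 3 had a positive mean ratio (48.2% of tested probes), 1 was positive on all 4 arrays (12%) and 4 were negative on all 4 (10.1%). An exact sign-flip test over 4 arrays has 16 sign patterns, and all values on 1 side is matched by 2 of them, so this design cannot pass a threshold of 0.05.

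**Figure D1:**
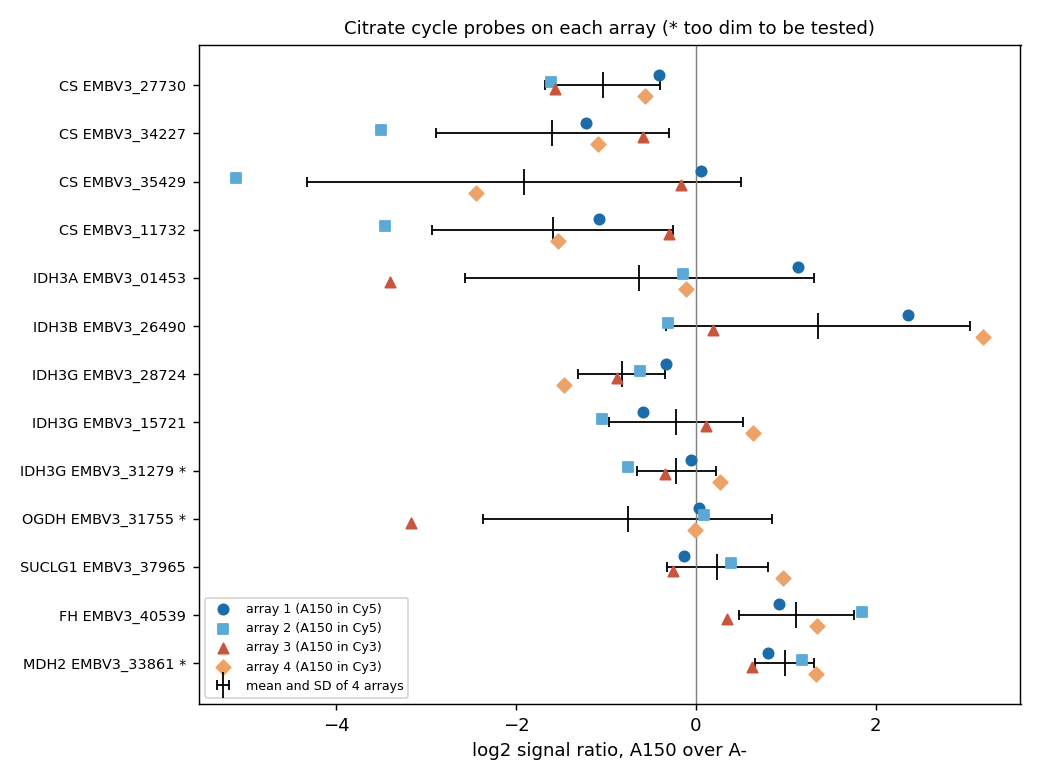
Log2 signal ratio of A150 over A- for the 13 citrate cycle probes, with 1 symbol per array and the mean and SD of the 4 arrays in black. The 4 CS probes have negative means and reach their lowest values on array 2, the FH and MDH2 probes lie above 0 on all 4 arrays, and IDH3A and OGDH each have a single low value, on array 3.

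Citrate synthase, the product of CS, condenses acetyl-CoA with oxaloacetate to citrate and is often used as a marker of mitochondrial content. The brightest CS probe, EMBV3_27730, had ratios of -0.41, -1.62, -1.56 and -0.56 on arrays 1 to 4. All 4 values were negative and their mean of -1.04 ± 0.64 (SD, n = 4) lay on the side of A- (limma unadjusted p = 0.0247, adjusted p = 0.272). The mean differed little between the dye orientations, at -1.01 with A150 in Cy5 and -1.06 with A150 in Cy3.

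This probe was among the brightest on the array in A-. Its raw brightness in scanner units was 34825, 14820, 16621 and 22845 in A150 on arrays 1 to 4. In A- it was 34686, 36826, 36439 and 34803. Only 34 to 55 of the 43794 probes were at least as bright in A- on the same array, the probe itself included, and the highest signals of that channel were 41948 to 47221. The spread of the A150 values was therefore far wider than that of the A- values, which were all among the brightest of their channel. On array 1 the A150 spot was among the brightest of its channel as well, with 20 probes at least as bright and a highest signal of 40348. The upper limit of the scanner is not known here. Whether the ratio of this probe is compressed at such brightness was not tested, so no fold is given for it.

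The other 3 CS probes lay on the same side in the mean. EMBV3_34227 had ratios of -1.22, -3.50, -0.59 and -1.08 on arrays 1 to 4 (mean -1.60 ± 1.30, 3.03-fold higher signal in A-, limma unadjusted p = 0.0313, adjusted p = 0.301). EMBV3_11732 had -1.08, -3.46, -0.30 and -1.54 (mean -1.59 ± 1.34, limma unadjusted p = 0.0350, adjusted p = 0.315). Both probes were thus negative on all 4 arrays, with a wider spread than the brightest probe.

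EMBV3_35429 had 0.06, -5.11, -0.17 and -2.44 (mean -1.92 ± 2.41, limma adjusted p = 0.487), so it was near 0 on arrays 1 and 3. Of the 16 CS values, 15 were negative. Array 2 gave the lowest ratio for each of the 4 probes, with a median of -3.48 over the probes there against -0.74, -0.45 and -1.31 on arrays 1, 3 and 4. Without array 2 the mean of EMBV3_27730 was -0.85, that of EMBV3_34227 -0.96, that of EMBV3_35429 -0.85 and that of EMBV3_11732 -0.97, so that the CS probes then lay close together. In the A150 channel of array 2, EMBV3_35429 and EMBV3_11732 were not above background. The A- spot of EMBV3_35429 on array 2 had a brightness of 36511, among the brightest of that channel. On arrays 1, 3 and 4 it had 2012, 1923 and 4973, so the mean of this probe leans on 1 bright spot. The probes of 1 gene share their target and are not replicates of one another.

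The NAD-dependent isocitrate dehydrogenase converts isocitrate to 2-oxoglutarate in the matrix and is built from a catalytic alpha subunit, encoded by IDH3A, and the beta and gamma subunits, encoded by IDH3B and IDH3G. IDH3A had ratios of 1.14, -0.15, -3.40 and -0.11 on arrays 1 to 4 (mean -0.63 ± 1.94, SD, n = 4, limma adjusted p = 0.804). The low value came from array 3, where A- had a brightness of 4581 against a background level of 1610. The A150 spot there, at 1029, was not above its level of 1079, so the size of this ratio is uncertain. Without array 3 the mean was 0.30, on the other side of 0. IDH3A was above background in A150 on 2 arrays and in A- on 3.

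IDH3B had ratios of 2.37, -0.31, 0.19 and 3.20 (mean 1.36 ± 1.69, limma adjusted p = 0.493). It was high on arrays 1 and 4 and near 0 on arrays 2 and 3. The means by dye were 1.03 with A150 in Cy5 and 1.69 with A150 in Cy3, and an effect of the dye on this probe was not tested. The raw brightness of IDH3B in A150 was 5886, 2440, 1412 and 9689 on arrays 1 to 4, and in A- it was 1685, 3521, 1655 and 1081. On array 2 the A150 spot was not above its background level of 2467. On array 3 the A- spot lay just above its level of 1610. The ratios near 0 on these arrays therefore come from dim spots. Without array 4 the mean was 0.75.

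The brightest of the 3 IDH3G probes, EMBV3_28724, had ratios of -0.33, -0.62, -0.88 and -1.47. All 4 values were negative, with a mean of -0.83 ± 0.49 or 1.77-fold higher signal in A- (limma unadjusted p = 0.0345, adjusted p = 0.314). Its A150 spot exceeded background on array 4 only, and its A- spot on arrays 1, 3 and 4.

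EMBV3_15721 had -0.58, -1.05, 0.11 and 0.64 (mean -0.22 ± 0.74, limma adjusted p = 0.854), with a mean of -0.82 where A150 was in Cy5 and of 0.37 where it was in Cy3. EMBV3_31279 had -0.05, -0.76, -0.34 and 0.27 (mean -0.22 ± 0.44) and was not tested. The size of the IDH3G ratio therefore rests on 1 dim probe of 3.

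Of the isocitrate dehydrogenase subunits, IDH3B had a higher ratio than IDH3G EMBV3_28724 on all 4 arrays. The size of this difference is uncertain, since the IDH3G probe was above background in A150 on 1 array and in neither fraction on array 2. IDH3B exceeded IDH3A on 3 arrays, by 1.99 ± 1.78 on the log2 scale. These pairs, like the other pairs of genes compared below, were chosen with the values known.

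OGDH encodes the E1 subunit and DLST the E2 subunit of the 2-oxoglutarate dehydrogenase complex, which makes succinyl-CoA. The OGDH probe had ratios of 0.04, 0.10, -3.16 and -0.01 on arrays 1 to 4. It was not above background in A150 on any array, and in A- only on array 3, with a brightness of 1862 against a background level of 1610. On the other three arrays OGDH was thus not above background in either fraction. No fold is given for a probe this dim.

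SUCLG1 encodes the alpha subunit of succinyl-CoA ligase, which both forms of the enzyme share. It had ratios of -0.14, 0.39, -0.26 and 0.97 on arrays 1 to 4, with 2 positive and 2 negative values and a mean of 0.24 ± 0.56 (SD, n = 4, limma adjusted p = 0.813). SUCLG1 was above background in A150 on 3 arrays and in A- on 4. Without array 4 its mean was -0.0017.

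SUCLG2 and SUCLA2, which encode the GTP-forming and ATP-forming beta subunits that pair with SUCLG1, stood further toward A150. SUCLG2 had ratios of 2.15, 2.20, 1.70 and 2.10, a mean of 2.04 ± 0.23 (limma unadjusted p = 0.000319, adjusted p = 0.0636), and a second probe at 1.21 ± 0.56. Its adjusted p ranged from 0.0265, without normalization within arrays, to 0.240 over the alternatives. SUCLA2 had ratios of 1.91, 0.81, 2.42 and 1.60, a mean of 1.69 ± 0.67 (limma adjusted p = 0.1253), and a second probe at 1.70 ± 0.83. The SUCLG2 probes were above background in A- on 2 and 3 arrays, and those of SUCLA2 on 1 and 0.

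The ratio of SUCLG2 was above that of SUCLG1 on each array, by 2.28, 1.81, 1.96 and 1.13 (mean 1.80 ± 0.48). The ratio of SUCLA2 was also above it on 4 of 4 arrays. The brightest SUCLG2 and SUCLA2 probes were not above background in A- on 2 and 3 of the arrays, so the sizes of these differences are uncertain, and no test is drawn from them.

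Fumarase, encoded by FH, hydrates fumarate to malate, and an isoform of the same gene acts in the cytosol. FH had ratios of 0.93, 1.85, 0.34 and 1.35 on arrays 1 to 4, all positive, with a mean of 1.12 ± 0.64 (SD, n = 4) or 2.17-fold higher signal in A150 (limma unadjusted p = 0.0188, adjusted p = 0.241). Spots of FH exceeded background on 3 arrays in A150 and on 2 in A-. On array 3 neither fraction exceeded background, and on array 2 A- did not, so the size of this fold is uncertain. FH had means by dye of 1.39 with A150 in Cy5 and 0.85 with A150 in Cy3. Its raw brightness was 1042, 3205, 1056 and 1566 in A150 and 1349, 2530, 1176 and 647 in A-. On arrays 1 and 3 the raw A150 value was the lower one, before any correction for local background and channel balance. The mean ratio was 0.60 without background correction and 1.01 without normalization within arrays, with the other steps kept.

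Malate dehydrogenase 2, encoded by MDH2, closes the cycle by oxidising malate to oxaloacetate. MDH2 had ratios of 0.80, 1.19, 0.62 and 1.34, the narrowest spread of the 13 probes (mean 0.99 ± 0.33, SD, n = 4), and the means by dye were 0.99 and 0.98. All 4 values were positive, but its spots exceeded background only on arrays 1 and 4 in A150, and on no array in A-. With no filter on dim probes its limma unadjusted p was 0.00788 and its adjusted p 0.298. No fold is given, since A- was not above background on any array.

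**Figure D2:**
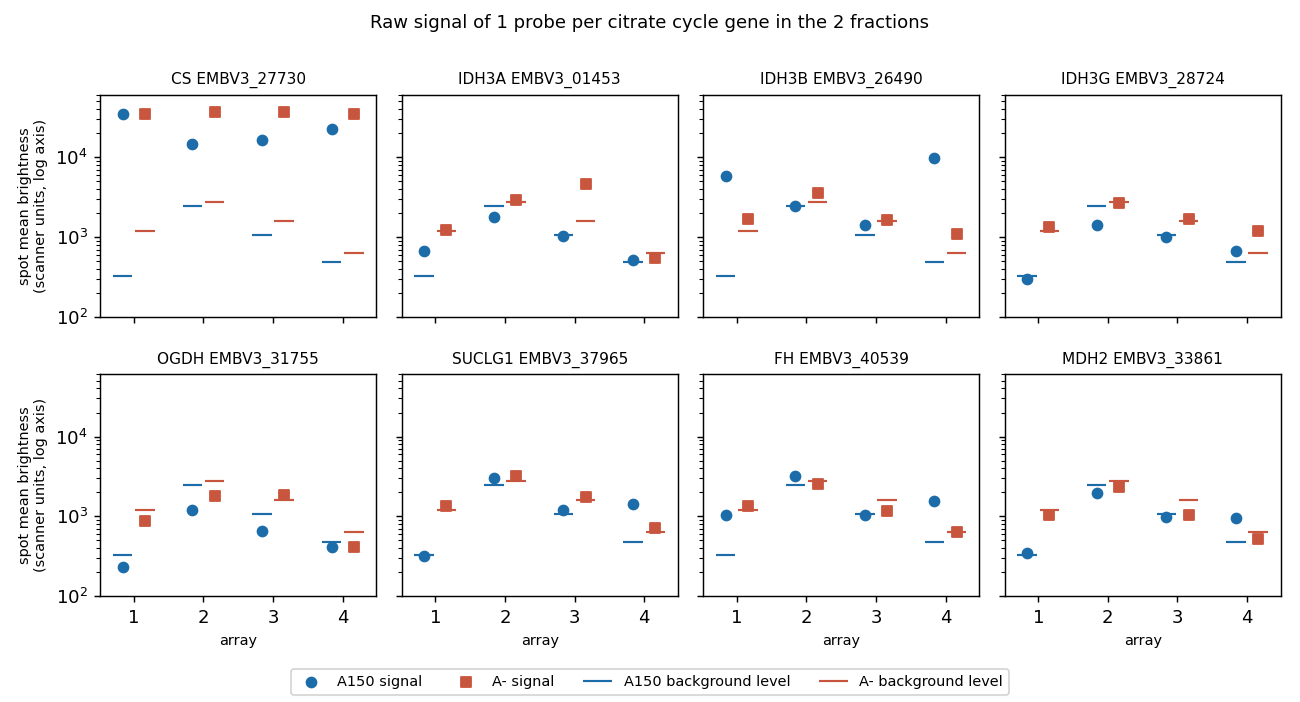
Raw spot brightness in scanner units, on a log axis, of 1 probe for each of the 8 genes with a probe on arrays 1 to 4, with A150 as circles and A- as squares. Short lines mark the background level of each channel. The CS probe lies far above these levels in both fractions, while the other 7 genes lie near them on most arrays and IDH3B lies well above them in A150 on arrays 1 and 4.

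By mean ratio the 6 tested genes ran in the order IDH3B (1.36), FH (1.12), SUCLG1 (0.24), IDH3A (-0.63), IDH3G (-0.83) and CS (-1.04). The values of each gene overlapped those of its neighbour in this order over the 4 arrays. The closest neighbours were IDH3A and IDH3G, which differed by 0.20 ± 1.86, and FH and SUCLG1 differed by 0.88 ± 0.48 in the same direction on 4 of 4 arrays. Of the 15 pairs of genes, 6 had ranges that did not overlap: IDH3B, FH and SUCLG1 each against CS and against IDH3G. This holds for the brightest probe of each gene. IDH3G EMBV3_15721, from -1.05 to 0.64, overlapped IDH3B, FH and SUCLG1. CS EMBV3_35429, up to 0.06, overlapped IDH3B and SUCLG1, and CS EMBV3_11732, up to -0.304, just overlapped IDH3B, whose lowest value was -0.309. FH lay above every value of all 4 CS probes. FH and CS, at opposite sides, differed by 2.16 ± 0.91, and FH was higher on 4 of 4 arrays, with its A- spot above background on 2 of them.

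As a group, 3 of the 6 tested genes had a positive mean ratio, beside 50.6% of the 7795 genes measured. FH was positive on all 4 arrays (13.7% of genes), and CS and IDH3G were negative on all 4 (8.89%). The median of the 6 genes was 0.40, -0.23, -0.57 and 0.43 on arrays 1 to 4, beside -0.02, -0.06, 0.17 and 0.12 for all genes measured. The mean of these medians was 0.01 ± 0.49, and the median of the gene means was -0.19, beside 0.05 ± 0.11 and 0.01 for all genes. The 2 summaries of the citrate cycle genes lay on opposite sides of 0, and without array 3 the median of the gene means was 0.35.

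**Figure D3:**
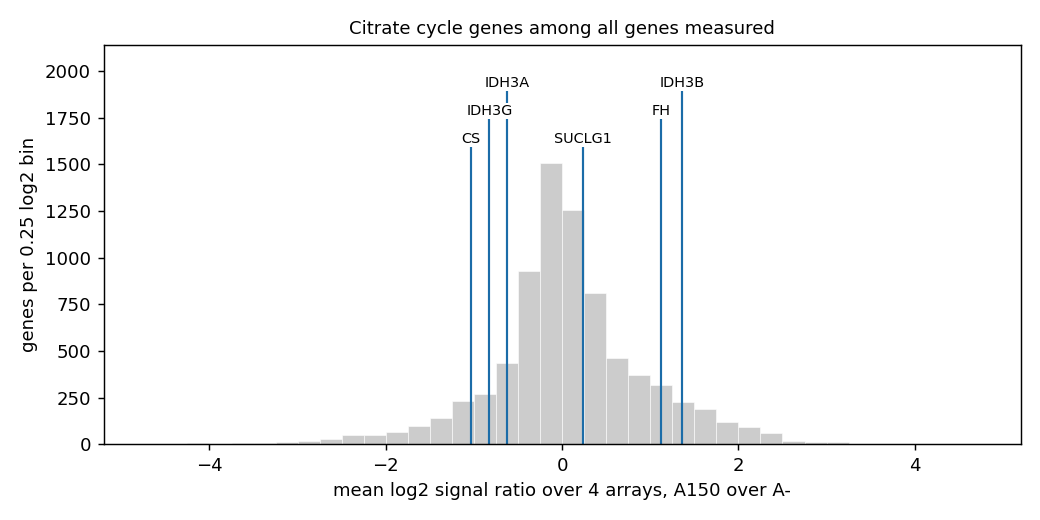
Number of genes per bin of the mean log2 signal ratio of A150 over A- for the 7795 genes measured, each by its brightest tested probe, with the 6 citrate cycle genes marked by lines. The lines lie on both sides of the peak near 0, from -1.04 for CS to 1.36 for IDH3B.

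The remaining enzymes of the cycle were taken from a list of 11 genes, of which 10 had a probe and 7 were measured. In this list 6 of 7 genes had a positive mean ratio, and 2, SUCLG2 and SUCLA2, had an unadjusted p under 0.05 toward A150 and 0 toward A-. Over all 7795 genes measured, 50.6% were positive, 9.9% had such a p toward A150 and 4.25% toward A-. The median of their gene means was 0.31. SDHC, a membrane anchor of succinate dehydrogenase, was the 1 gene with a negative mean, at -0.03 ± 0.46, while its second tested probe stood at 0.16 ± 0.20, so it had no settled side. The other measured subunit genes of this complex were SDHB (0.31 ± 0.52) and SDHD (0.53 ± 2.39). An untested second probe stood at 0.25 ± 1.83 for SDHB and at -0.55 ± 0.93 for SDHD.

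Pyruvate enters the cycle through the mitochondrial pyruvate carrier and the pyruvate dehydrogenase complex. Of 9 measured genes of this list, 5 were positive and 4 negative, the median of gene means was 0.19, and 3 had an unadjusted p under 0.05 toward A150 (9.9% of all genes) and 2 toward A- (4.25%), with 50.6% of all genes positive. PDK3, a kinase that switches the dehydrogenase off, had 3.43, 2.81, 0.45 and 2.62 on arrays 1 to 4 (mean 2.33 ± 1.30). Its spot exceeded background in A- on 1 array only, so the size of this ratio is uncertain. MPC1, a subunit of the carrier, had 0.59, 1.41, 0.98 and 1.13 (mean 1.03 ± 0.34) and was not above background in A- on any array.

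On the A- side, PDHB, the beta subunit of the E1 component, had -1.22, -0.72, -2.48 and -0.67 (mean -1.27 ± 0.84), while a second, untested probe stood at 0.23 ± 1.0. PDP1, a phosphatase that switches the complex on, had -1.75, -1.40, -0.01 and -0.63 (mean -0.95 ± 0.78). No gene of this list passed limma's adjusted threshold. The other measured kinase genes, PDK1 and PDK2, had negative means of -1.32 ± 1.48 and -0.34 ± 0.96, and a second tested PDK1 probe stood at -2.29 ± 1.86, so the kinase genes lay on both sides of 0. PDK1 and PDK2 were named after their values were seen.

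Among genes that feed or drain the cycle and shuttle its metabolites, 7 of 9 measured genes were positive (50.6% of all genes), with a median of gene means of 1.0, and 0 had an unadjusted p under 0.05 toward A150 (9.9%) or toward A- (4.25%). Their spread was wide. SLC25A13, the aspartate and glutamate carrier citrin, stood at 0.99 ± 1.16, and ACO1, the cytosolic aconitase that also binds iron-responsive elements, at 1.29 ± 1.70. ME3, a mitochondrial malic enzyme, stood at -0.88 ± 1.14, and SLC25A1, the citrate carrier, at -0.02 ± 0.46. Untested second probes stood at 0.31 ± 0.39 for ME3 and at 1.07 ± 1.62 for SLC25A1.

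Of 10 measured genes of glycolysis and lactate metabolism, 6 were positive and 4 negative, the median of gene means was 0.18, and 3 had an unadjusted p under 0.05 toward A150 (9.9% of all genes) and 1 toward A- (4.25%), with 50.6% of all genes positive. PGK1, phosphoglycerate kinase, had 1.14, 3.27, 1.82 and 3.35 on arrays 1 to 4 (mean 2.40 ± 1.09), and PGAM1, phosphoglycerate mutase, had 1.10, 1.95, 2.65 and 0.72 (mean 1.61 ± 0.87). In A-, PGK1 exceeded background on 1 array and PGAM1 on 2, so the sizes of these ratios are uncertain. GPI, glucose-6-phosphate isomerase, had -0.53, -0.54, -1.25 and -0.93 (mean -0.81 ± 0.35), while a second, untested probe stood at 1.26 ± 1.41. HK2, a hexokinase, stood at -0.42 ± 0.41, with untested probes at -0.12 ± 0.41 and 0.51 ± 0.39. HK1, also a hexokinase and counted toward A150, stood at 1.11 ± 0.43, while its second tested probe stood at -0.46 ± 0.37. None passed limma's adjusted threshold.

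**Figure D4:**
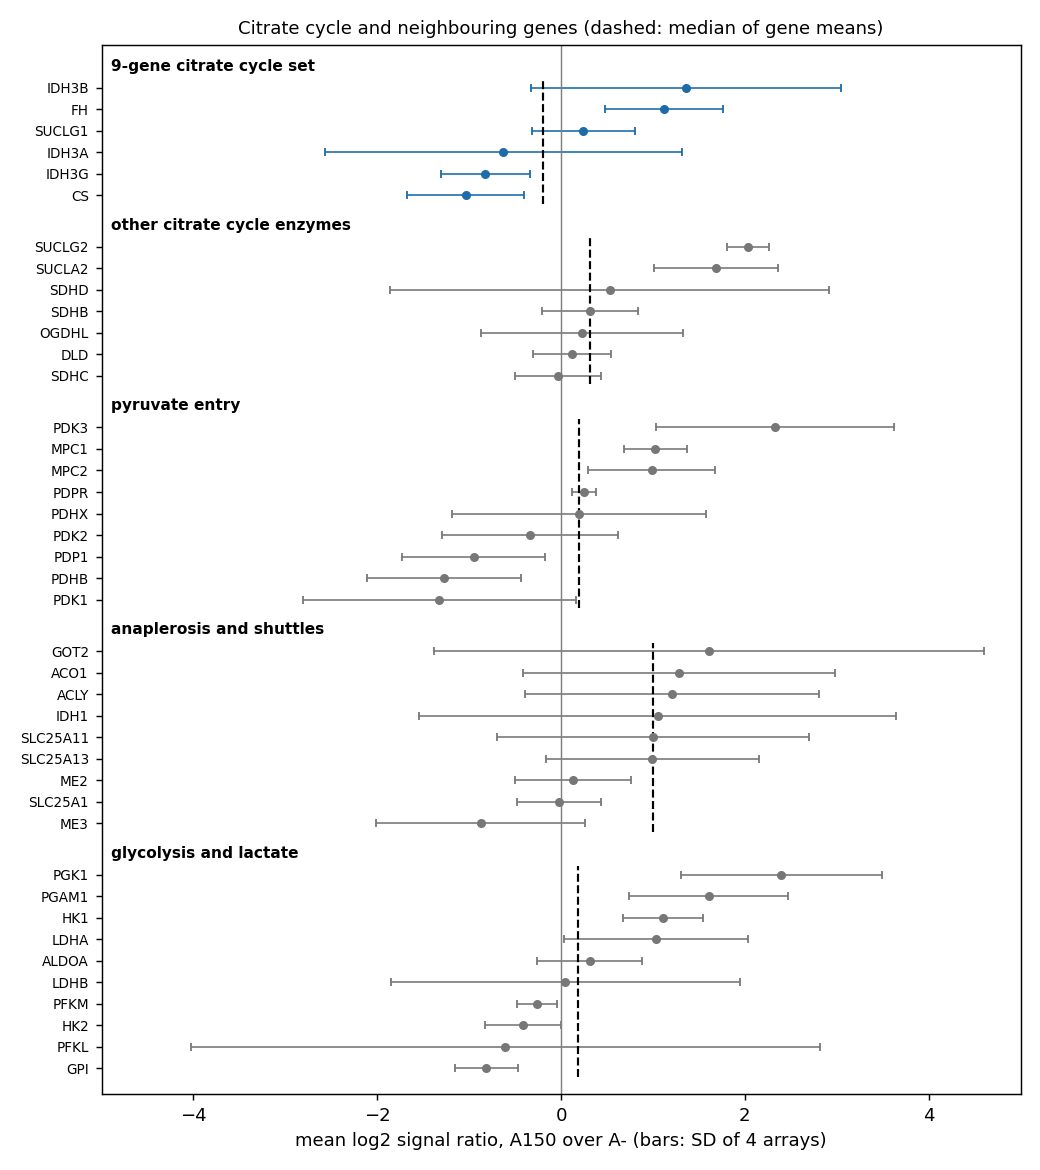
Mean log2 signal ratio of A150 over A- with the SD of 4 arrays for the measured genes of the citrate cycle set and of 4 neighbouring lists, with the median of the gene means of each list as a dashed line. The set and the pyruvate, shuttle and glycolysis lists hold genes on both sides of 0, with list medians from -0.19 for the set to 1.0 for the shuttle list.

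By the root mean square difference over the 4 arrays from the median profile of the 6 citrate cycle genes, the nearest of 7258 other named genes were SEPHS1 (0.077), DAAM2 (0.090), PLCXD3 (0.139), BMPER (0.140) and LAMP2 (0.148), in log2 units. This profile stays within 0.57 of 0 on each array.

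The oocyte origin of the RNA was checked with 10 marker genes, all of which were measured, 7 with a positive and 3 with a negative mean ratio. Of the 10 genes, 7 were above background on all arrays in A150 and 4 in A-. GDF9, an oocyte growth factor, stood at 1.70 ± 1.07 and ZP3, of the zona pellucida, at 1.70 ± 1.01. Other tested ZP3 probes stood at 2.67 ± 1.62 and 3.83 ± 1.30, above background in A- on 2 and 1 arrays, so the size of the ZP3 ratio is uncertain. The 3 markers with a negative mean were named after their values were seen. Of these, the germ cell gene DAZL stood at -2.44 ± 2.30, negative on all 4 arrays, with its other tested probes at -1.59 and -3.43. BMP15 (-0.02 ± 0.24) and the brightest ZP2 probe (-0.06 ± 0.35) lay near 0. A second tested ZP2 probe stood at 1.74 ± 0.69, with its A150 and A- spots brighter than background on each of the 4 arrays. ZP2 thus had no settled side. DPPA3 stood at 1.11 ± 0.23, while its second tested probe stood at -0.32 ± 0.89. The summed brightness of the oocyte markers was 129736 to 154364 in A150 and 78937 to 101481 in A-. Of 14 cumulus and granulosa markers, 5 were measured, and FSHR, LHCGR, AMH and FOXL2 were not above background in either fraction on any array. The 5 measured markers were STAR, GJA1, PTX3, CYP19A1 and INHBA. In that order, their A150 spots exceeded background on 4, 3, 3, 2 and 1 arrays, and their A- spots on 4, 3, 2, 2 and 2. The summed brightness of the cumulus and granulosa markers was 11885 to 27595 in A150 and 14157 to 35217 in A-. Of 8 blood and stroma markers, 4 were measured. The summed brightness of this list was 2676 to 12970 in A150 and 4031 to 20592 in A-. Beside these sums, the median brightness of a single bovine probe, background included, was 305 to 1574 in A150 and 530 to 2502 in A-. How much of the sums is background was not tested, so they do not measure the signal of other cells. The part of other cells in the ratios of the citrate cycle genes was not tested.

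**Figure D5:**
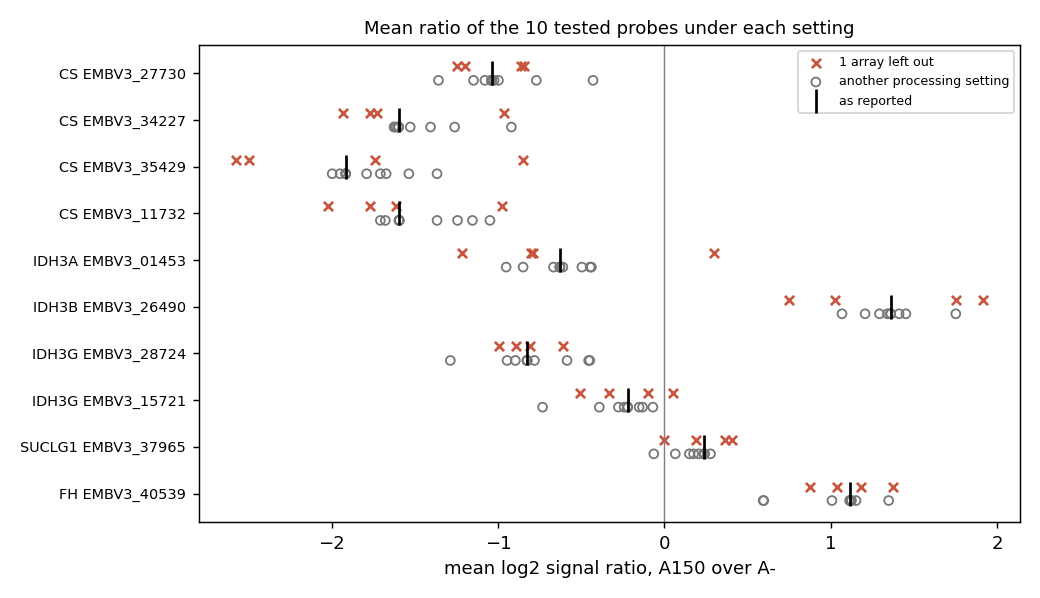
Mean log2 signal ratio of A150 over A- of the 10 tested citrate cycle probes as reported (black bar), with 1 array left out (crosses) and under other processing settings (open circles). The CS probes stay below 0 and FH and IDH3B above 0 throughout, while IDH3A, SUCLG1 and the second IDH3G probe reach the other side of 0.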

How the data were processed

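The deposited files of each array hold raw spot intensity values, mean and median, and local background in the 532 and 635 nm scans, per the file headers, without subtraction. The scanner is unnamed there. The authors' deposited value table of all arrays is on a log2 scale. It correlated at 0.996 to 0.999 with loess log2 ratios of A150 over A- made without background correction, with slopes of 0.84 to 1.22 and medians of -0.011 to 0.020; so it runs as A150 over A-, centred near 0, and the reason for the slopes is unknown.

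Per the labels' protocols, RNA was amplified (WT-Ovation One-Direct, which can favour some transcripts) before labelling with ULS chemistry.

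In each file, 22 unnamed rows were dropped. Spot means and median local backgrounds were corrected with normexp (offset 50) and normalized by loess within arrays, control spots at weight 0, in limma 3.58.1 under R 4.3.3; signs of arrays 3 and 4 were turned. Background levels came from 153 negative-control spots. Ratios were tested against 0 with limma (lmFit, eBayes, 3 residual degrees of freedom, Benjamini-Hochberg over 19453 probes, threshold 0.05). The 2 fractions share an array, so pairing is part of the ratio. Each array held another of the 4 pools, per the labels, and p-values measure the spread of pools and arrays together. Symbols came from the platform annotation (21790 probes with 1 symbol, 0 with several, 22004 with none), updated through RefSeq synonyms of ARS-UCD2.0. That matched MPC1 and MPC2 to their older names BRP44L and BRP44. A gene was represented by its brightest tested probe. The build of the array design is unknown here and no coordinates are printed, and no probe or protein sequence was used here.

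The genes and lists were chosen with earlier results of these data known. Named genes were all citrate cycle genes, the 2 genes with the smallest p on each side of each neighbouring list, the 5 nearest in profile, GDF9 and ZP3. SDHB, SDHD, HK1, DPPA3, STAR, GJA1, PTX3, CYP19A1, INHBA and the pairs of genes compared were chosen after their values were seen. Precision is limited by having 4 arrays.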

Additional observations from a re-analysis of the deposited data

Results flagged for a closer look

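The ratio of the OGDH probe on array 3, -3.16, stood far from the other 3 arrays, which lay between -0.01 and 0.10. The gap made up 0.968 of the whole range, above Dixon's critical value for 4 values, which chance exceeds in about 1 group of 20, and 13 probes were examined. Without array 3 the mean was 0.04. The probe was above background only in A- on array 3. IDH3A was also lowest on array 3, at -3.40, without passing this criterion (0.717).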

How the results depend on the processing

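No adjusted p of a citrate cycle probe fell under 0.05 in any alternative run: their number was 0 in all of them, also without each array (0 to 0). Of 142 values of the 10 tested probes under 15 alternatives, 138 kept their side of 0 and 4 did not. SUCLG1 was -0.063 without normalization within arrays, and with 1 array left out it spanned -0.0017 (without array 4) to 0.41. IDH3G EMBV3_15721 spanned -0.51 to 0.054 (positive without array 2), and IDH3A -1.22 to 0.30 (positive without array 3). Over all alternatives CS EMBV3_27730 ranged from -1.36 to -0.43 (adjusted p 0.170 to 0.714), FH from 0.59 to 1.38 (0.183 to 0.580) and IDH3G EMBV3_28724 from -1.29 to -0.45 (0.195 to 0.657). Leaving out 1 array moved the median of the citrate cycle gene means between -0.31 and 0.35, positive only without array 3. It was -0.73 over all tested probes in place of genes, and -1.04 when A150 and A- both had to exceed background on every array, where CS is the 1 gene left. Without normalization within arrays the median of all genes moved to -0.38 and that of the set to -0.42.

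The 12 calls over all probes became 0 without background correction, with median centring, scale normalization, no filter on dim probes, a dye term or the authors' deposited log2 ratios, and 0 to 0 with 1 array left out. They became 655 without normalization within arrays, 244 when both fractions had to exceed background on every array, 32 with median pixel brightness and 201 on single channels without the pairing. The cause was not tested. SUCLG2 passed without normalization within arrays (2.37, adjusted p = 0.0265 in limma). SDHC was 0.0086 without background correction, 0.15 with median pixel brightness and -0.13 to 0.20 with 1 array left out. SLC25A1 was 0.011 without background correction and -0.22 to 0.11 with 1 array left out, 0.085 without array 1. The reported analysis is paired, since each array gives the ratio of the 2 fractions of 1 pool. Of the 6 tested citrate cycle genes, CS was the 1 with a probe whose A150 and A- spots exceeded background on every array; dim signal limits the others and 2 of the CS probes.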
